A study of Mus musculus with 12 samples.

Results

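Small nucleolar RNAs (snoRNAs) and small Cajal body RNAs (scaRNAs) are short non-coding RNAs that guide the chemical modification of other RNAs. Box C/D snoRNAs (symbols starting with Snord) guide ribose methylation of ribosomal RNA (rRNA) by the enzyme fibrillarin, and box H/ACA snoRNAs (Snora) guide the conversion of uridine to pseudouridine by dyskerin. The scaRNAs (Scarna) do the same for the spliceosomal RNAs in the Cajal body, a nuclear structure. Most of them lie in introns of a host gene and are released from the spliced intron. A few, such as Snord118, Snord14e, Snora73a and Snora73b, belong to families known for a part in the cutting of the rRNA precursor. SnoRNAs and scaRNAs carry no poly(A) tail.

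The signals of these RNAs were followed in mouse neutrophils, the short-lived phagocytes of the bone marrow and blood, on immobilized immune complexes (IC), that is, antigen bound to plastic and then covered with antibody against it. All transcript clusters (probe sets that together measure 1 transcript) that name 1 gene with a symbol starting with Snord, Snora or Scarna were taken, and for genes with several clusters the cluster with the highest mean signal over the arrays was used. This gave 54 RNAs, namely 31 C/D box RNAs, 20 H/ACA RNAs and 3 scaRNAs, out of 19938 genes with a cluster of their own. A further 41 clusters that name several genes, 24 of them with Snord116l1 among the names, were not counted.

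The 12 arrays fall into 4 groups of 3, with wild-type and Card9-/- cells each on the control surface and on IC. Wild type is C57BL/6, and Card9-/- cells came from mice homozygous for the Card9tm1Jrld mutation, a loss of the adapter CARD9 in all cells of the animal, backcrossed to C57BL/6. Neutrophils labelled Ly6G+ were prepared from the bone marrow by a Percoll gradient and kept for 4 h on a surface without (control) or with immune complexes, and adherent and floating cells were lysed together in all groups. Every group has 1 array in each of 3 experiments, whose number stands in the labels as a time. Age and sex of the mice, and whether cells were pooled, are not in the labels. Values are log2 signals of the array, and a difference of 1 is a doubling of signal, so that the signal of 1 cluster cannot be set against another as an amount of RNA.

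The Card9 signal of Card9-/- cells differed from that of wild-type cells by -2.52 on the control surface (adjusted p = 0.00229, limma) and by -2.27 on IC (adjusted p = 0.00491), with no overlap between the genotypes. All 18 neutrophil markers looked at had mean signals above the 91st percentile of the clusters, from 9.48 for Prtn3 to 12.99 for Lcn2. Arrays of the same experiment correlated with r between 0.985 and 0.997 over 28944 clusters, and arrays of different experiments with r between 0.944 and 0.986. These ranges overlap only at their ends. The summed signal of 10 B cell marker genes, on the linear scale, ran from 842 to 1973 in experiment 1, from 420 to 455 in experiment 2 and from 2168 to 5625 in experiment 3. In such bulk RNA, fewer cells of a type and less RNA per cell cannot be told apart.

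The 54 RNAs lie within 43 host genes, except for Snord118, which has none in the annotation. Hosts were ribosomal protein genes for 21 RNAs, other protein-coding genes for 17 and non-coding genes, such as the Snhg genes and Gas5, for 15. The RNAs are 45 to 275 bases long with a median of 91. Because many host genes of snoRNAs begin with a run of pyrimidines at the transcription start, the region around the start of the host genes of the highest and most variable RNAs is shown, from 50 bases before the start to 25 bases from it (RefSeq, GRCm38.p6, mouse), 5′ to 3′ on the strand of the gene. Capitals mark the letters CTTTC, which were searched on both strands within 25 bases of the start.
Snhg12, host of Snora44 and Snora16a, chr4:132308628-132308702, plus strand: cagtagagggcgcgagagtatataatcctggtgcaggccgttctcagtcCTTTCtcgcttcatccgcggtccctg
Rplp2, host of Snora52, chr7:141447601-141447675, plus strand: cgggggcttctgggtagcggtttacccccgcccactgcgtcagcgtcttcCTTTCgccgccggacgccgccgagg
Ncl, host of Snord82 and Snora75, chr1:86359431-86359505, minus strand: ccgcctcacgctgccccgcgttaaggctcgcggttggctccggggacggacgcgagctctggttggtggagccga
Snhg3, host of Snora73a and Snora73b, chr4:132353662-132353736, minus strand: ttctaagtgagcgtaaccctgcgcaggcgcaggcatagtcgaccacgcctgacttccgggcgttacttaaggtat
The letters were found in Snhg12 and Rplp2 and not in the windows of Ncl and Snhg3. They occurred in the window of 10 of the 32 host genes with a sequence (31.25%) and of 12.5% of all 32851 promoters, which describes the sequences and shows no site.

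The signals spread over a wide range. Snora52, from an intron of the ribosomal protein gene Rplp2, had the highest mean of the 54 at 11.95, and the lowest array still gave 11.63. It was followed by Scarna13 from Snhg10 (10.63), Snord57 from the snoRNP protein gene Nop56 (10.60), Scarna17 (10.27) and Snord82 from the nucleolin gene Ncl (9.69). Next came Snora44 from Snhg12 (9.43), Snord49b (9.41), Snora73a and Snora73b, both from Snhg3 (9.04 and 8.97), and Snord104. The lowest were Snord58b from Rpl17 at 2.78, Snord52 at 3.05 and Snord38a at 3.53. Of the 54 RNAs, 37 had a mean above the median of all clusters of 5.65, and these were 20 of 31 C/D, 15 of 20 H/ACA and 2 of 3 scaRNAs. The median of the means was 6.85 for the C/D and 6.53 for the H/ACA RNAs, with members of each class from below 4 to above 10.

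In wild-type cells, IC minus control surface gave a median log2 difference of 0.07 over the C/D RNAs, of 0.20 over the H/ACA RNAs and of 0.04 over all clusters. Differences were above 0 for 21 of 31 C/D RNAs, 18 of 20 H/ACA RNAs and 3 of 3 scaRNAs, against 59.7% of all clusters. Above 0 in all 3 experiments were 6 of 31 C/D and 4 of 20 H/ACA RNAs, where 18.8% of all clusters were. None of the 54 passed an adjusted p of 0.05 in limma, nor did any of the 28944 clusters (0%), and 4 of the 54 and 2775 clusters had an unadjusted p under 0.05. A linear model without moderation of the variance also passed none of the 54. Without experiment 3 both medians were near 0, at -0.03 for the C/D and 0.00 for the H/ACA RNAs.

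Single RNAs with the same sign in all 3 experiments of the wild type differed little. Snora20, from an intron of the chaperonin gene Tcp1, was higher on IC by 0.43, 0.28 and 1.20 in experiments 1, 2 and 3, a mean of 0.64 ± 0.25 (SE) with an adjusted p of 0.48. Scarna13 was higher by 0.17, 0.20 and 0.93 (mean 0.44 ± 0.19, adjusted p = 0.50). In the other direction, the Snord58b signal was lower on IC by 0.37 ± 0.10, with differences of -0.28, -0.33 and -0.48 (adjusted p = 0.41). Its signals, 2.61 to 3.36 on the control surface and 2.13 to 3.08 on IC, overlap, and their mean is the lowest of the 54. Snora75, which shares its host Ncl with Snord82, differed by -0.21 ± 0.11 (adjusted p = 0.56).

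In Card9-/- cells, IC minus control surface gave a median of 0.43 over the C/D RNAs, and 27 of 31 differences were above 0. The H/ACA RNAs had a median of 0.34 with 20 of 20 above 0, and the scaRNAs a median of 0.14 with 3 of 3, against a median of -0.01 and 46.4% above 0 over all clusters. Again none of the 54 RNAs and none of the 28944 clusters passed (0%), in limma or without moderation, and 17 of the 54 and 872 clusters had an unadjusted p under 0.05. Differences were above 0 in all 3 experiments for 16 of 31 C/D RNAs and 3 of 20 H/ACA RNAs, where 11.5% of all clusters were. Without experiment 3 the medians were 0.13 for the C/D and 0.07 for the H/ACA RNAs, so most of their size came from that experiment.

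Snord47 and Snord73b are given as C/D RNAs that were higher on IC in every experiment of the Card9-/- cells. Snord118, described with the experiments, differed by 1.52 ± 0.58, with 3.70 in experiment 3. Snord47, encoded in Gas5, gave signals of 7.39, 6.71 and 6.74 on the control surface and of 7.67, 7.80 and 9.04 on IC in experiments 1, 2 and 3 of the Card9-/- cells. All IC arrays were above all control arrays, with a mean difference of 1.22 ± 0.32 and an adjusted p of 1.00, since no cluster passed. In the wild type its signals were 6.98, 7.56 and 7.34 on the control surface and 7.12, 7.34 and 8.35 on IC, which overlap. Snord73b, from Rps3a1, gave 7.32, 6.18 and 6.17 on the control surface and 7.57, 7.27 and 9.31 on IC in Card9-/- cells (1.49 ± 0.43, adjusted p = 1.00). Here 1 control array was above 1 IC array, and the difference in experiment 3, 3.14, was an 8.82-fold change of signal.

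The response to IC was then compared between the genotypes, as the difference of the differences. The median over the C/D RNAs was 0.40, with 26 of 31 higher in Card9-/- cells, over the H/ACA RNAs 0.12 with 15 of 20, and over the scaRNAs -0.18 with 1 of 3, while over all clusters it was -0.03 with 43.6%. None of the 54 and none of the 28944 clusters passed (0%), in limma or without moderation, and 7 of the 54 and 1066 clusters had an unadjusted p under 0.05. In all 3 experiments, 14 of 31 C/D and 5 of 20 H/ACA RNAs had a larger response in Card9-/- cells, against 12.4% of all clusters. The H/ACA median turned to -0.09 without experiment 3, and that of the C/D RNAs was then 0.31.

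Snord58b had the smallest p of the 54 in this comparison. Its IC differences were -0.28, -0.33 and -0.48 in the wild type and 0.20, 0.26 and 0.56 in Card9-/- cells, and the genotypes differed by 0.70 ± 0.14 (adjusted p = 0.999). Snord61, encoded in Rbmx, differed by 0.58 ± 0.19 and Snord37, encoded in the elongation factor gene Eef2, by 0.81 ± 0.29, each with an adjusted p of 0.999. In the other direction stood Scarna13 (-0.31 ± 0.26) and Snord8 (-0.30 ± 0.18).

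This comparison shares its arrays with those of the genotypes on each surface. On the control surface, Card9-/- minus wild-type cells gave a median of -0.21 over the C/D RNAs, with 25 of 31 below 0 and 11 of 31 below 0 in all 3 experiments, where 12.8% of all clusters were. The H/ACA median was -0.05 with 11 of 20 below 0, and the scaRNA median was 0.16 with 0 of 3 below 0. None of the 54 passed, while 11 of the 28944 clusters did (0.038%), all lower in Card9-/- cells. Without experiment 2 the C/D median was -0.07. In that experiment the Card9-/- control array was low in many C/D RNAs: the C/D median lay 0.25 above the median of all clusters there, and 0.56 to 2.27 above it on the other 11 arrays. The H/ACA median was lowest on the same array too, at 0.45 above that of all clusters, against 0.51 to 2.62 on the other 11. The scaRNA median was not, at 4.00 there and 3.77 on the Card9-/- IC array of experiment 2.

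On IC, the medians of Card9-/- minus wild-type cells were 0.14 for the C/D and 0.12 for the H/ACA RNAs, with 25 of 31 and 16 of 20 above 0. In all 3 experiments, 8 of 31 C/D and 2 of 20 H/ACA RNAs were above 0, where 13.5% of all clusters were. Without experiment 3 the medians were -0.02 and -0.09. None of the 54 passed, and 47 of the 28944 clusters did (0.162%), 13 of them higher and 34 lower. Snora75 came closest, with differences of 0.22, 0.34 and 0.53 in the 3 experiments (0.36 ± 0.11, adjusted p = 0.30). Its signals were 5.56, 5.69 and 4.44 in wild-type and 5.77, 6.03 and 4.97 in Card9-/- cells, so that the genotypes overlapped across experiments and differed within each.

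Levels also differed between the experiments. After subtracting each array's median, 35 of the 54 RNAs differed among the 3 experiments (limma F-test over all clusters, adjusted p under 0.05), namely 17 of 31 C/D, 16 of 20 H/ACA and 2 of 3 scaRNAs, where 69.9% of all clusters passed. Experiment 3 held the highest of the 3 means for 38 of the 54 RNAs, with 20 of 31 C/D and 16 of 20 H/ACA RNAs, and experiment 2 held the lowest mean for 28. Because the array medians were lower in experiment 3, this depends on the subtraction, and with the signals as deposited experiment 3 was highest for 24 of the 54, 12 of 31 C/D and 11 of 20 H/ACA RNAs. These counts were not made over all clusters. Other sets shifted as well: as deposited, the host gene median was 9.65 to 10.41 in experiment 3 and 9.21 to 9.38 before. The median of clusters with a microRNA symbol was 3.70 to 3.77 in experiment 3 and 4.44 to 4.82 before. Snora44 had the widest range of the 54. Listed as wild type on control and IC and then Card9-/- on control and IC, its signals were 9.90, 9.87, 9.67 and 10.21 in experiment 1, 7.75, 7.75, 7.57 and 7.53 in experiment 2, then 9.80, 11.30, 10.22 and 11.55 in experiment 3 (adjusted p = 3.54e-06). All 4 arrays of experiment 2 were thus below every other array. Snora31, from the Tpt1 gene, and Scarna13 were also lowest in experiment 2 in all groups, at 5.25 to 5.40 against 6.15 to 7.54 for Snora31 and at 9.68 to 10.09 against 10.26 to 11.33 for Scarna13. Snord14e, of the U14 family and encoded in Hspa8, was highest in experiment 3, at 7.88 to 8.62 against 6.96 to 7.44 before. Snord37 and Snora7a had means among the most alike over experiments after the subtraction, with ranges of 0.07 and 0.24, against 0.48 and 0.79 with the signals as deposited.

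**Figure D1:**
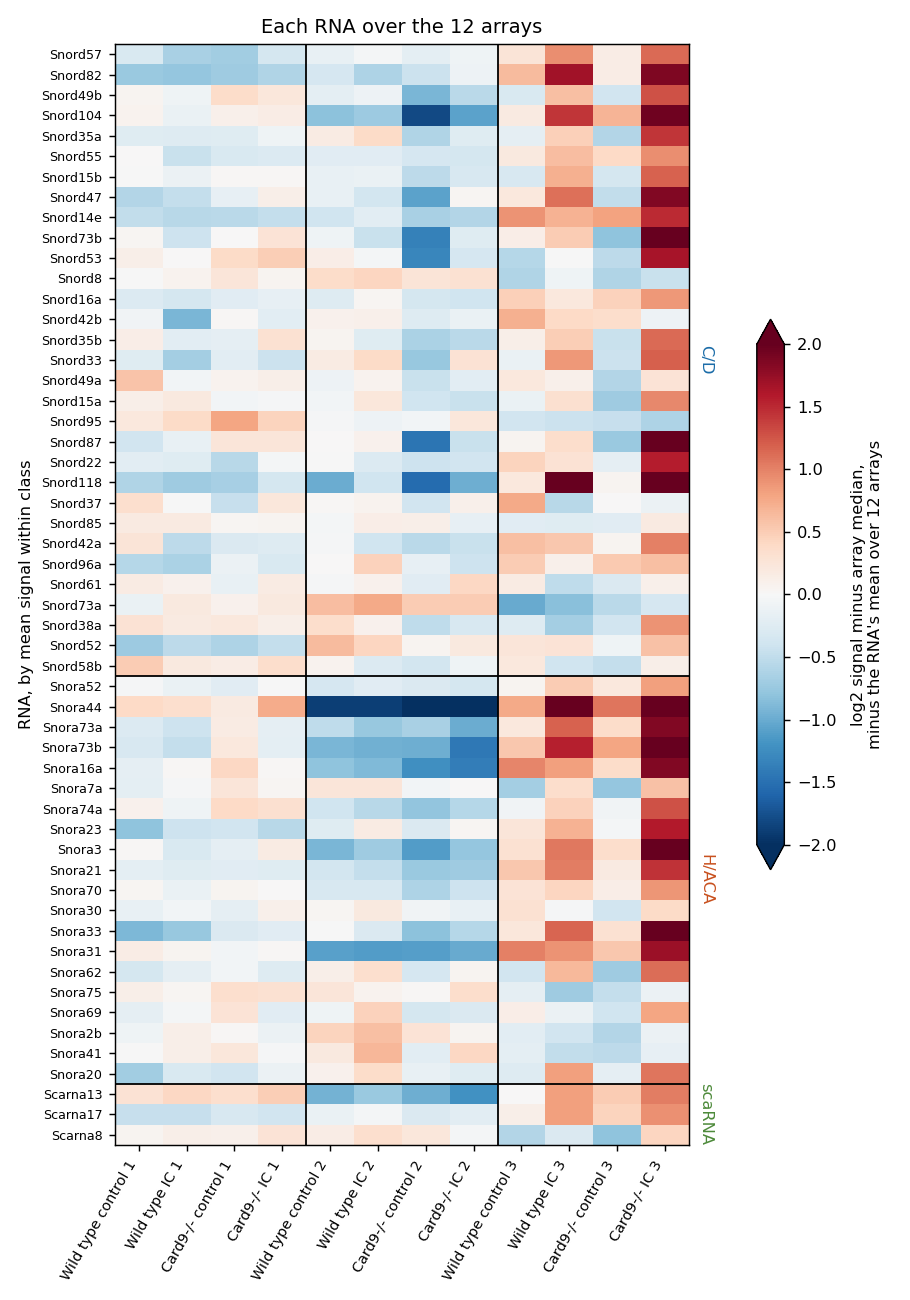
Log2 signal of each of the 54 RNAs on each of the 12 arrays, after subtracting the array's median over all clusters and then the RNA's own mean over the arrays; rows are ordered by mean signal within C/D, H/ACA and scaRNA, and black vertical lines separate the experiments. The IC arrays of experiment 3 are the highest for many rows, and Snora44, Snora31 and Scarna13 are low on all 4 arrays of experiment 2.

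The distance between the C/D and the H/ACA RNAs was taken on each array. The C/D median minus the H/ACA median ran from -0.20 to 0.43 on the 8 arrays of experiments 1 and 2 and from -0.66 to -0.33 on the 4 arrays of experiment 3, with no overlap. With the RNAs above the median signal alone, the ranges did overlap, at -0.42 to -0.03 in experiments 1 and 2 and -0.67 to -0.35 in experiment 3. Between the groups the distance overlapped entirely, with means of -0.01 ± 0.58 (SD, n = 3) in Wild type control, -0.09 ± 0.35 in Wild type IC, -0.07 ± 0.34 in Card9-/- control and -0.03 ± 0.33 in Card9-/- IC. As RNAs of 1 array are not replicates, no test was made over them.

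The response to IC was also taken experiment by experiment. In wild-type cells the C/D median was -0.07, 0.07 and 0.42 in experiments 1, 2 and 3, and in Card9-/- cells it was 0.05, 0.19 and 0.94. The H/ACA median was 0.06, 0.01 and 0.60 in wild-type and -0.07, 0.05 and 1.26 in Card9-/- cells. For the scaRNAs it was 0.10, 0.19 and 0.82, and 0.14, -0.25 and 0.48. Over all clusters the median in experiment 3 was 0.08 in wild-type and -0.02 in Card9-/- cells, below both class medians.

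**Figure D2:**
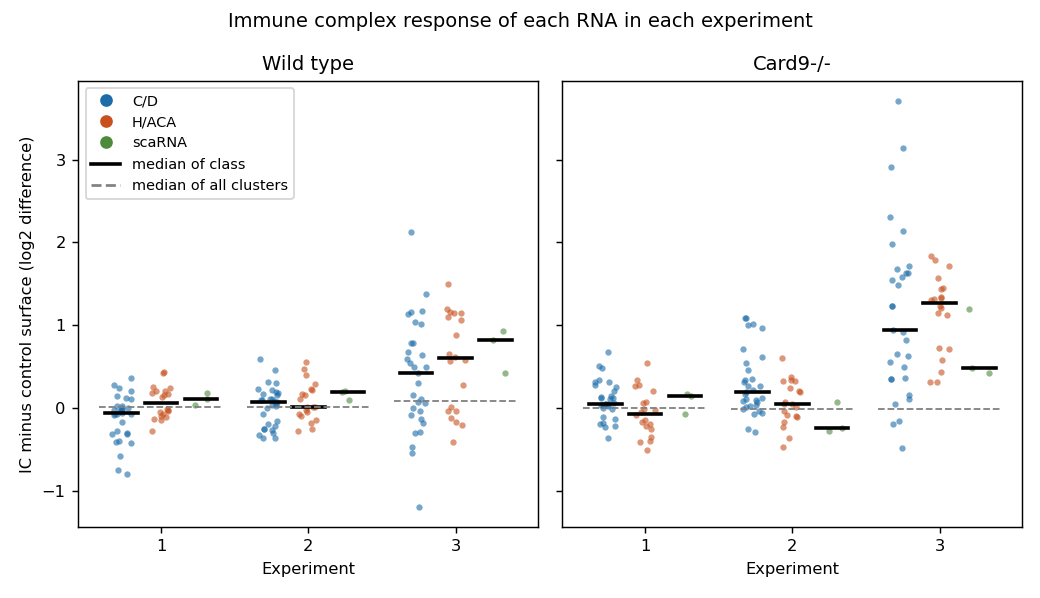
Log2 difference between IC and control surface for each RNA (points) in each experiment, in wild-type and Card9-/- cells, with the class median (black bars) and the median of all clusters (dashed). Class medians lie between -0.25 and 0.19 in experiments 1 and 2 and between 0.42 and 1.26 in experiment 3.

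Whether this was more than the spread between genotypes and arrays was tested, after the pattern had been seen, by setting the response in experiment 3 against the mean response in experiments 1 and 2, with the 2 genotypes as replicates (limma over all clusters). Because experiment 3 is a single experiment, the p-values of this test do not measure the spread between experiments. Of the 28944 clusters 439 passed (1.52%), 175 with a larger response in experiment 3 (0.605%) and 264 with a smaller one (0.912%). Of the 54 RNAs 10 had a larger response, 4 of 31 C/D and 6 of 20 H/ACA, and 1 C/D RNA had a smaller one. The median was 0.74 for the C/D RNAs with 26 of 31 above 0, 0.89 for the H/ACA RNAs with 18 of 20 above 0 and 0.64 for the scaRNAs with 3 of 3, against 0.02 and 53.1% over all clusters. In 11 of 31 C/D, 13 of 20 H/ACA and 3 of 3 scaRNAs, both responses of experiment 3 were above all 4 earlier ones, which held for 15.4% of all clusters. In none of the 54 were both below, against 14.7% of all clusters. When either of the earlier experiments was left out, none of the 54 passed, while the C/D median stayed between 0.64 and 0.71 and the H/ACA median between 0.88 and 0.90. After centring each array on its median, 4 of the 54 passed.

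Among the C/D RNAs, Snord118 (U8), which is needed for the maturation of large-subunit rRNA and has its own gene on chromosome 11, changed most. Its signals, in the same order of surfaces and genotypes as for Snora44, were 4.74, 4.66, 4.66 and 4.97 in experiment 1, then 4.49, 5.09, 4.01 and 4.55 in experiment 2, then 5.10, 7.22, 5.05 and 8.75 in experiment 3. Both IC arrays of experiment 3 thus stood above the other 10, and IC over control was 4.35-fold in wild-type and 13.03-fold in Card9-/- cells there. The response was larger than before by 2.57 ± 0.44 (adjusted p = 0.031). With limma's robust variance estimate the adjusted p was 0.064.

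Snord82, from nucleolin, gave 9.02, 9.01, 9.03 and 9.14, then 9.56, 9.29, 9.55 and 9.85, then 9.94, 11.11, 9.56 and 11.23 in the same order (1.38 ± 0.19, adjusted p = 0.021). Its IC arrays of experiment 3 were again the highest of all. Snord33, from Rpl13a, is known together with Snord35a from the response of cells to an excess of fatty acids. Its signals were 6.68, 6.28, 6.70 and 6.48, then 7.23, 7.45, 6.38 and 7.40, then 6.34, 7.46, 6.14 and 7.72 (1.20 ± 0.23, adjusted p = 0.043), so that its IC arrays of experiment 3 lay close to 3 of the arrays of experiment 2. Its neighbour Snord35a also had a difference of 1.20, with a larger error of 0.34 (adjusted p = 0.11).

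Snord15b, from Rps3, gave 7.71, 7.64, 7.73 and 7.73, then 7.71, 7.73, 7.41 and 7.59, then 6.95, 8.11, 7.02 and 8.51 (1.29 ± 0.19, adjusted p = 0.022). Its IC arrays of experiment 3 were the highest and its control arrays there the lowest, the latter no longer after subtracting the array medians. The exception in direction was Snord37, with 5.41, 5.10, 4.61 and 5.28, then 5.24, 5.29, 4.91 and 5.36, then 5.38, 4.19, 4.73 and 4.57 (-0.89 ± 0.18, adjusted p = 0.045). Its IC arrays of experiment 3 were the lowest of all, and its signal is below the median of all clusters.

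Of the H/ACA RNAs, Snora73a and Snora73b (U17), which take part in the processing of small-subunit rRNA, come from introns of the same host, Snhg3, and are both 205 bases long, so that their probes may not separate them. Snora73a gave 8.83, 8.73, 9.25 and 8.91, then 8.74, 8.49, 8.68 and 8.32, then 8.87, 9.97, 9.13 and 10.58 (1.54 ± 0.23, adjusted p = 0.022). Snora73b gave 8.71, 8.60, 9.24 and 8.83, then 8.27, 8.22, 8.28 and 7.80, then 9.13, 10.28, 9.48 and 10.82 (1.51 ± 0.26, adjusted p = 0.032). Both lay slightly lower on IC than on control in every pair of experiments 1 and 2 and more than 1 higher in experiment 3. Snora44, whose values are given with the experiments, had a difference of 1.29 ± 0.23 (adjusted p = 0.036), and its partner in the same host, Snora16a, one of 0.80 ± 0.39 (adjusted p = 0.35).

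Snora21, from Rpl23, gave 6.50, 6.49, 6.45 and 6.43, then 6.46, 6.36, 6.16 and 6.17, then 6.78, 7.39, 6.52 and 7.74 (0.95 ± 0.18, adjusted p = 0.043), with its 2 highest arrays again those on IC in experiment 3. Snora7a and Snora62 differed from these. Snora7a, from Rpl32, gave 8.38, 8.59, 8.81 and 8.59, then 8.96, 8.96, 8.73 and 8.78, then 7.44, 8.59, 7.46 and 8.77 (1.22 ± 0.20, adjusted p = 0.031). Its IC arrays of experiment 3 were within the range of the earlier ones, and its 2 control arrays were the lowest. Snora62, from Rpsa, had the same low control arrays, at 5.27 and 5.04, and 6.41 and 6.82 on IC, against 5.74 to 6.57 before (1.31 ± 0.23, adjusted p = 0.036).

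**Figure D3:**
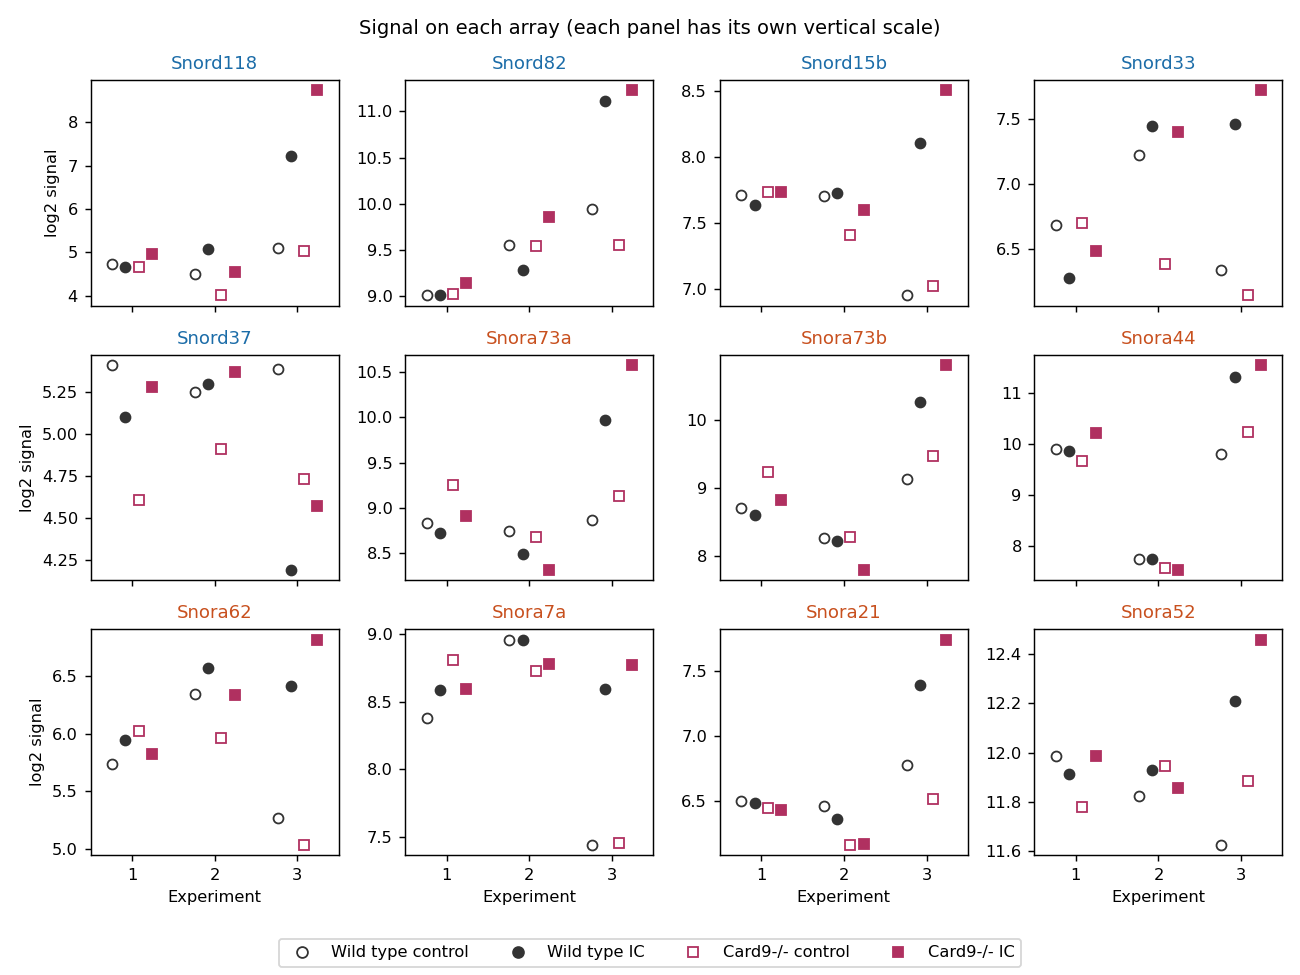
Log2 signal on each array, by experiment, of the 11 RNAs whose response in experiment 3 differed and of Snora52, the highest; circles are wild-type and squares Card9-/- cells, open symbols the control surface and filled symbols IC. In most panels the filled symbols of experiment 3 stand above the rest, while in Snora7a the open symbols of experiment 3, at 7.44 and 7.46, stand below.

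Over all 54 RNAs, both IC arrays of experiment 3 were above the other 10 arrays in 8 of 31 C/D, 10 of 20 H/ACA and 2 of 3 scaRNAs, against 6.05% of all clusters. Both control arrays of experiment 3 were below the other 10 in 8 of the 54, against 13.9% of all clusters. After subtracting the array medians, which were lower in experiment 3 (5.27 to 5.39) than before (5.70 to 5.93), this held for 4 of the 54, Snord8, Snora62, Snora7a and Scarna8, against 4.24% of all clusters. Split by signal, both responses of experiment 3 exceeded all earlier ones in 10 of the 20 C/D RNAs above the median of all clusters and in 1 of the 11 below it, and in 12 of 15 and 1 of 5 H/ACA RNAs, where 15.4% of all clusters did. Among the 28 RNAs of the median length or longer this was so in 17, and among the 26 shorter ones in 10, against the same 15.4%. That share is over clusters of every signal and length. It was not taken over clusters split in the same way, so whether the splits are particular to these RNAs was not tested.

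The host genes were then compared with the small RNAs that lie within them. Some hosts, ribosomal protein genes above all, are known to have near-identical copies elsewhere in the genome, so a cluster was taken only if its number, which runs by chromosome, lay among clusters of the host's own chromosome. Such a cluster was found for 23 hosts, which hold 26 of the 54 RNAs. Of the non-coding hosts only Gas5, with Snord47, had one, so all other pairs are with protein-coding hosts. Over the 23 hosts, the response to IC in experiment 3 exceeded that of the earlier ones by a median of 0.08, with 13 of 23 above 0. Past the threshold 0 were larger and 1 smaller, Srcap, the host of Snora30 (-0.78 ± 0.16, adjusted p = 0.049). Both responses of experiment 3 were above all earlier ones in 8 of 23 hosts, a share close to that of the C/D RNAs (11 of 31). They were below in 5 of 23, against 15.4% above and 14.7% below over all clusters. Both IC arrays of experiment 3 were the highest of all in 6 of 23 hosts and the lowest in 3. In 20 of 26 pairs the difference was larger in the small RNA. With each host's highest cluster instead, 8 of 24 of which sort with another chromosome, this held in 21 of 28 pairs. Ncl differed by 0.18 ± 0.17 (adjusted p = 0.68), against 1.38 for Snord82 and -0.07 for Snora75 within it. Rps3 differed by 0.20 ± 0.19, against 1.29 for Snord15b and 1.02 for Snord15a. Eef2 differed by -0.15 ± 0.14, against -0.89 for Snord37. The hosts at the ends of the range were Rps12 (0.79 ± 0.20, adjusted p = 0.084), with Snora33 at 1.40 ± 0.38, and Ipo7 (-0.93 ± 0.25, adjusted p = 0.091), with Snora23 at 0.83. Probes in these clusters may still read the copies. By kind of host, the median difference was 0.95 for the 21 RNAs in ribosomal protein genes, 1.02 for the 15 in non-coding genes and 0.22 for the 17 in other protein-coding genes. RNAs that share a host did not always go together: Snord73b was at 1.68 and Snord73a at 0.07, both in Rps3a1, and Snord42a at 0.74 and Snord42b at -0.11, both in Rpl23a.

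**Figure D4:**
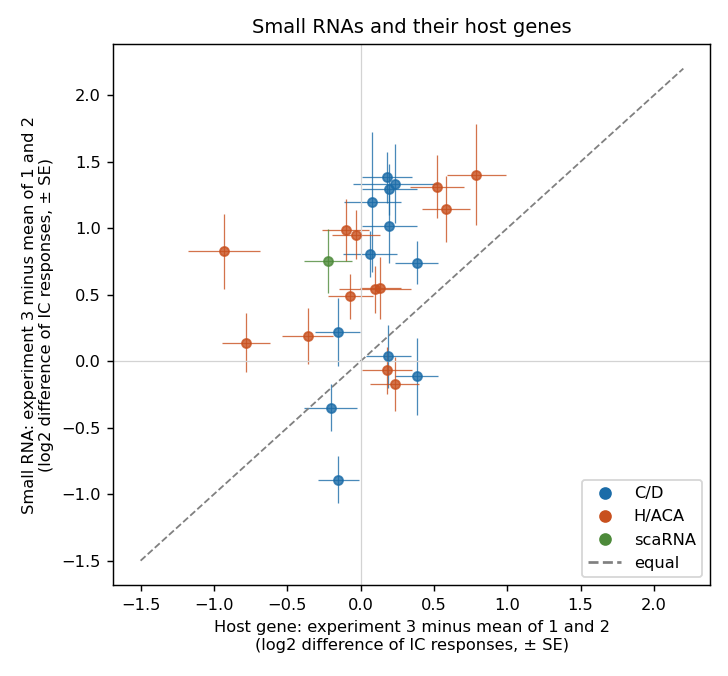
IC response in experiment 3 minus the mean of experiments 1 and 2 (log2, ± SE) of 26 small RNAs against that of the host gene they lie in; RNAs of 1 host share a horizontal position. In 20 of 26 pairs the small RNA lies above the dashed line of equal differences.

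The genes for the proteins that carry the small RNAs were looked at in the same fit. None of the 4 measured C/D core proteins and none of the 4 H/ACA core proteins passed in any of the 5 comparisons of surface and genotype, nor in the comparison of experiments. In the latter their medians were -0.01 and 0.21. Fibrillarin (Fbl), the methyltransferase of the C/D particle, differed by -0.08 ± 0.22 and Nop58 by -0.08 ± 0.19, and of the H/ACA proteins Nhp2 differed by 0.41 ± 0.30 and Nop10 by 0.28 ± 0.18. Of 15 assembly and transport factors 0 passed (median -0.03), and of 16 Cajal body proteins 0 passed (median -0.13). Of 16 genes for the opening and trimming of introns, 1 had a smaller response in experiment 3, Tent4b, a poly(A) polymerase of the exosome pathway (-0.84 ± 0.15, adjusted p = 0.036). The lariat-opening enzyme Dbr1 was at -0.60 ± 0.14 (adjusted p = 0.064). Of 8 genes listed as non-coding snoRNA hosts 1 had a larger response, Snhg15 (0.98 ± 0.18, adjusted p = 0.036). Of these 8 only Gas5 holds an RNA followed here, and Snhg15 does not. Of 34 genes of RNA polymerase I and ribosome assembly 0 passed (median 0.10).

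Other structural small RNAs, a list made after the data had been seen, had a larger response in experiment 3 too. Of 10 such RNAs 5 passed: Vaultrc5, a vault RNA (1.38 ± 0.18, adjusted p = 0.020), the Y RNAs Rny1 and Rny3 (1.74 ± 0.34 and 1.68 ± 0.28), Rmrp, the RNA of RNase MRP (1.39 ± 0.24), and Rnu3a, the U3 snoRNA (1.81 ± 0.36, adjusted p = 0.047). Their median was 1.17. Rny3 gave 8.79 to 9.77 on the 8 earlier arrays, 9.59 and 9.69 on the control surface of experiment 3 and 11.59 and 11.19 on IC there. Rn7sk, at 12.47 to 12.93 on every array, differed by 0.28 ± 0.15 (adjusted p = 0.42). Over 300 clusters with a microRNA symbol, the median was 0.07, with 2 larger and 2 smaller past the threshold.

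Markers of other cells were looked at beside this pattern. The B cell markers had a median difference of 0.57 between experiment 3 and the earlier experiments, with 0 of 10 past the threshold, and their summed signal was 2168 and 2918 on the control arrays of experiment 3 and 3789 and 5625 on its IC arrays. In 6 of the 10, both responses of experiment 3 were above all earlier ones, against 15.4% of all clusters, and in 0 they were below. Both IC arrays of experiment 3 were the highest of all in 5 of the 10, against 6.05% of all clusters. On IC in experiment 3 the B cell markers differed by -0.07 (Igll1) to 1.37 (Vpreb3) in wild-type and by -0.01 (Igll1) to 1.55 (Ms4a1) in Card9-/- cells. The lowest signal of a B cell marker on any array was 3.54, for Ms4a1, below the median of all clusters of 5.65. A log2 signal above 0 does not by itself show that an RNA was present. The neutrophil markers had a median of -0.21, and the 5 lists for eosinophils, monocytes, T and NK cells, erythroid cells and platelets had medians from -0.04 to 0.29 with none past the threshold. The part of such cells, and of differences in RNA preparation between the experiments, in the response of the small RNAs was not tested.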

How the data were processed

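Mouse Gene 1.0 ST arrays (Affymetrix) were hybridised with 150 ng of labelled total RNA from each of 12 samples. RNA was isolated on RNeasy Micro columns, which are made for longer RNA, so the recovery of small RNAs can vary, and probes for an RNA inside an intron can also read unspliced host RNA; neither was measured. The authors deposited 1 log2 signal per array for each transcript cluster, and the sources used here do not name their summary or normalisation of probes. Of 35556 rows, 6612 whose numbers lie below the annotated range were left out and 28944 were tested: 21789 name 1 gene, 1621 several and 5534 none. Values of 476 clusters are identical to those of another. The 54 RNAs were matched to RefSeq (GRCm38.p6) by gene ID, and hosts are genes whose span contains them; the sequences of the small RNAs themselves were not used here. Of 6 RNAs with several clusters, the cluster with the highest mean was used. Host and listed genes were measured by their highest cluster among those whose number sorts with the gene's chromosome (the most frequent one of the 15 clusters on either side), a rule added after seeing the data; Snora30, whose cluster sorts with another chromosome, kept it, since its other cluster holds identical values. The number of arrays limits the precision.

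Groups were compared with limma 3.58.1 in R 4.3.3 (lmFit and eBayes, all 12 arrays, 4 group means, experiment as a fixed block), two-sided, with Benjamini-Hochberg adjustment over all clusters within each comparison and a threshold of 0.05. Experiments were compared by a moderated F-test after median centring. The comparison of experiment 3 with the earlier experiments was fitted to the signals of all 12 arrays and was added after seeing the data. Its model held a control level and an IC response for each experiment, and a genotype term for the level and for the response. Scripts were tested on simulated data. Arrays of the same experiment number deviated together from their group means (correlations of 0.67 to 0.87, against -0.73 to 0.36 between numbers), and the labels give the number as a shared time, so the numbers pair the samples. Samples are the labels' separate arrays, and p-values measure the spread between them that is left after the terms of each model. For the group comparisons these terms include the experiment block.

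RNAs named in the text were those with the highest means per class, the smallest p with 1 sign in all experiments, the largest or smallest spread over arrays or experiments, a known role, or a call in the added comparison. The 54 RNAs and the gene lists were chosen with earlier results of these data known. Alternatives were other normalisations, blocks, filters, variance models and leaving out each experiment. A factorial test of treatment and genotype, the factors named in the paper's methods, was run per cluster without moderation. It also held experiment as a block, which the methods do not name.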

Additional observations from a re-analysis of the deposited data

Results flagged for a closer look

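For 11 RNAs the response to IC differed between experiment 3 and the mean of experiments 1 and 2 in a test of that difference (limma, adjusted p under 0.05, 1.52% of all clusters). The differences were 2.57 for Snord118, 1.54 for Snora73a, 1.51 for Snora73b, 1.38 for Snord82, 1.31 for Snora62, 1.29 for Snora44, 1.29 for Snord15b, 1.22 for Snora7a, 1.20 for Snord33, 0.95 for Snora21 and -0.89 for Snord37. In 10 of them both responses in experiment 3 were above 0, against 33.1% of all clusters, but their choice by a larger response there favours this. The test was added after the pattern had been seen. It took the genotypes as replicates of a single experiment 3, so its p-values do not measure the spread between experiments. Fewer RNAs passed after median centring, and none when either earlier experiment was left out.

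For Snord22, encoded in Snhg1, and Snord58b, the IC response was below 0 in every wild-type experiment and above 0 in every Card9-/- experiment, with genotype differences of 0.84 and 0.70. Several responses of Snord22 were close to 0: they were -0.00044, -0.26 and -0.03 in wild-type and 0.50, 0.01 and 1.71 in Card9-/- cells. Snord58b had the lowest mean signal of the 54, 2.78. By this sign pattern the difference was not tested. The interaction term of the limma fit gave an adjusted p of 0.999 for both RNAs. Of all clusters, 180 showed the same pattern (0.622%), and 626 the opposite one (2.16%), which none of the 54 RNAs did.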

How the results depend on the processing

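In the 5 comparisons of surface and genotype, no alternative brought any of the 54 RNAs past the threshold, and the C/D and H/ACA medians stayed within the spread between arrays. With no replicate block, the count of clusters for Card9-/- against wild type fell to 1 on the control surface and 0 on IC; as a random block it was 105 on IC and 7 for IC in wild-type cells. On the control surface the count was 6 with robust variances, 0 without moderation and 7 with only the groups compared; on IC it was 22 after median centring, 0 without moderation and 173 with only the groups compared. Leaving out 1 experiment gave 1 to 51 clusters for IC in wild-type cells, 2 to 7 for the genotypes on the control surface and 3 to 116 on IC. For the response of experiment 3, 439 clusters and 11 RNAs became 216 and 4 after median centring, 925 and 19 with a variance trend, 292 clusters after quantile normalisation, 1056 above the median signal, where the C/D median was 1.08, and 0 to 4 clusters and 0 RNAs without experiment 1 or 2. That no RNA passed there was seen with fewer arrays in the fit. The F-test called 10398 clusters above the median signal. No result changed sign among the RNAs called. The interaction uses all arrays, so it has no fit on fewer groups, and no Snord113 to Snord116 gene was among the 54. Low signals and 3 arrays per group limit what could be seen, most of all for the 17 RNAs below the median signal.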
